A study of Rattus norvegicus with 18 samples.

Results

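The WNT ligands are a family of secreted signalling proteins, and 10 of them were chosen here by symbol: Wnt2, Wnt2b, Wnt4, Wnt5a, Wnt5b, Wnt6, Wnt7b, Wnt9a, Wnt10a and Wnt10b. No cutoff on measured values entered the choice, but it was made with earlier results of these data known. Of these, 8 were among the 13188 genes of the expression table, and Wnt2 and Wnt4 were not analysed here. The study listed WNT2B by name, from these libraries, among the genes activated by MYC, so its values are not independent evidence for that gene.

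RNA-seq was performed on 18 cultures of HO15.19, a derivative of the rat fibroblast line Rat1 that lacks functional myc. There were 6 groups of 3 cultures, all of them myc-/- and grown in 10% serum. In the groups called myc-/- + MYC, human MYC was expressed from a retroviral vector under an exogenous promoter in a stably infected line. The comparisons ask how the ligands of WNT signalling respond to MYC, and whether the aryl hydrocarbon receptor (AHR), a ligand-activated transcription factor, takes part. The myc-/- and the myc-/- + MYC groups received no siRNA. The myc-/- siCtrl and the myc-/- + MYC siCtrl groups received a control siRNA, and the remaining groups were myc-/- + MYC cells given siAHR-2 or siAHR-5, each an siRNA against AHR. Transfected cells received 40 nM siRNA and were collected after 48 h. Nothing in the labels says that the 3 cultures of a group were grown separately, so the p-values may measure technical spread alone.

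WNT ligands are lipid-modified in the endoplasmic reticulum by PORCN and carried to the cell surface by WLS. Outside the cell they bind Frizzled receptors together with LRP5 or LRP6 and stabilise β-catenin, which acts with LEF1 and its relatives on target genes. WNT5A and WNT5B also act through the ROR receptors without β-catenin. Fibroblasts are a common source of these ligands for neighbouring epithelium, and the combination of ligands differs from tissue to tissue.

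The deposited values are normalised expression on a log2 scale, and all levels below are on that scale. They fall into 2 blocks that were scaled apart, a 6-library set with the myc-/- siCtrl cells and the untransfected myc-/- + MYC cells, and a 12-library set with the untransfected myc-/- cells and all 3 transfected groups with MYC, so groups were compared only within a set. MYC was therefore tested once in each set, and within each set MYC and the transfection label cannot be told apart. Each set thus pairs an untransfected with a transfected group by the labels, and whether the labels of the untransfected and siCtrl groups are right was not tested. Read counts and depth are unknown, and so is the transformation, so the log2FC of genes with low values may be understated. Gene lengths were not used, and levels are not compared between ligands. The test was passed by genes with a difference of 1.5-fold or more (on the log2 scale, log2FC) together with an adjusted p from limma of 0.01 or less. Bulk RNA cannot tell fewer cells making a transcript from less transcript per cell.

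To show the DNA in front of the ligands, the 250 bases before the gene start were read from the RefSeq rat assembly GRCr8, on the strand of the gene. The reads themselves were aligned to another build, rn6. Such an entry existed for Wnt2b, Wnt5a, Wnt6, Wnt9a and Wnt10a, 5 of the 8 ligands. Wnt5b, Wnt7b and Wnt10b had none. Each window was searched on both strands for CACGTG, the canonical E-box to which MYC binds with MAX, and for GCGTG, the core of the element bound by AHR with ARNT. Variant E-boxes searched in the same way were CACGCG, the form CAAGTG, and the form with the letters CACCTG. The letters of GCGTG also lie inside CGCGTG, which is the first of these variants read on the other strand. The 3 windows below are shown because Wnt6 and Wnt9a were lower with MYC in both sets while Wnt2b was the other ligand with the canonical form, and capitals mark the letters that matched. Wnt6 starts after chr9:83778302-83778551 (plus strand), Wnt9a after chr10:44593441-44593690 (plus strand) and Wnt2b after chr2:195156946-195157195 (minus strand).
Wnt6: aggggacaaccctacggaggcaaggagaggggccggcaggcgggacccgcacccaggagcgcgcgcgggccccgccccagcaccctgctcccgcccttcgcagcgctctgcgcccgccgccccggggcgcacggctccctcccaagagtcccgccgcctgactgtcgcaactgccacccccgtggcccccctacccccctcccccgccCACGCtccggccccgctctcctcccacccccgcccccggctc
Wnt9a: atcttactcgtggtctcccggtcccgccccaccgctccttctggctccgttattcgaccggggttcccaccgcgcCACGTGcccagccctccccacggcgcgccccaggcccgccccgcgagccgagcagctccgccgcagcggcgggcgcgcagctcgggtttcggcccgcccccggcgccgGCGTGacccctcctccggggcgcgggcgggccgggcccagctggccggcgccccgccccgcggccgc
Wnt2b: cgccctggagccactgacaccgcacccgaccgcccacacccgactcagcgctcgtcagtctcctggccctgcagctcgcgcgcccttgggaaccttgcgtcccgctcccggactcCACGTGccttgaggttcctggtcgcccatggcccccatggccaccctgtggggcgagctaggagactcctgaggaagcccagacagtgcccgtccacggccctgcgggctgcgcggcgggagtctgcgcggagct

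The canonical CACGTG began 175 bases before the start of Wnt9a and 135 bases before that of Wnt2b, and 5.59% of 33469 promoter windows of this length hold it. The Wnt6 window held none of the 4 E-box forms, which occur in 34.9% of all windows. It held CACGC, the reverse complement of GCGTG, beginning 42 bases before the start. Wnt9a held GCGTG at 67 bases and Wnt5a held CACGC at 166 bases, against 25.9% of all windows with either strand of this motif. Wnt10a held CACCTG at 232 bases and its reverse complement CAGGTG at 145 bases, a form in 15.9% of windows. The windows of Wnt9a and Wnt6 had a GC content of 81.2% and 79.6%, against a median of 51.2% over all windows. These matches describe the letters of short windows and were not tested for binding.

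Ahr, the target of the siRNAs, measured 13.22 to 13.34 with siCtrl, 11.97 to 12.03 with siAHR-2 and 11.76 to 11.95 with siAHR-5, with a log2FC of -1.29 and -1.39 (limma, adjusted p = 0.000237 and 0.000216). The myc-/- cells of that set measured 11.67 to 12.01. Rat Myc, the gene these cells lack, was still listed at 8.01 to 9.47 in the 6-library set and at 8.16 to 10.94 in the 12-library set, and fell with MYC (log2FC -1.26 and -2.68). The files do not say whether reads of the human transgene were counted there, and MYC itself was not analysed here. Counts of markers past the cutoffs with MYC are to be read beside the shares of all genes. These were 12.5% higher and 14.3% lower in the 6-library set, and 10.8% higher and 14.7% lower in the 12-library set. All 12 fibroblast markers of the list used were in the table. With MYC 7 of them fell in the 12-library set, Col1a1 and Pdgfrb among them, and 0 rose. Within the 6-library set, 5 fell and 2 rose, Postn and Col3a1. Neither Postn nor Col3a1 passed the cutoffs in the 12-library set. The log2 of their summed level was 21.95 to 22.18 in myc-/- and 20.23 to 20.25 in myc-/- + MYC siCtrl cells, and 20.82 to 20.84 against 19.90 to 19.99 in the 6-library set. Markers of epithelium (5 of 7 in the table) summed to 7.89 to 8.03 without and 8.83 to 9.16 with MYC in the 12-library set, and to 8.69 to 8.70 and 8.85 to 9 in the smaller one. Those of endothelium (4 of 5) summed to 9.28 to 9.43 without and 9.51 to 9.63 with MYC, and to 8.09 to 8.20 and 8.44 to 8.53 in the smaller set. Those of white blood cells (5 of 6) summed to 8.73 to 8.83 without and 8.23 to 8.39 with MYC, and to 9.69 to 9.80 and 8.52 to 8.64 in the smaller set. None of these lists has a marker at 0 on the deposited scale. With MYC the epithelial list had 1 marker higher (Krt8, log2FC 1.70) and 1 lower (Cldn4, -0.84) in the 6-library set and 1 higher (Krt8, 1.17) in the 12-library set. The endothelial list had 1 higher (Tek, 1.61) in the 6-library set and 0 in the other. Of the epithelial list, Epcam lay between 1.22 and 2.42 over both sets. In myc-/- siCtrl cells Cdh1 measured 4.23 to 4.27, Krt8 6.02 to 6.17, Cldn4 6.83 to 6.93 and Krt19 7.68 to 7.73. In myc-/- cells of the 12-library set Cdh1 measured 3.65 to 3.70, Krt8 7.60 to 7.77, Cldn4 4.29 to 4.33 and Krt19 2.42. The T cell gene Cd3e, at 9.30 to 9.39 in myc-/- siCtrl cells and 7.19 to 7.31 with MYC, was the only white blood cell marker past the cutoffs in either set. The part of these marker shifts in the ligand results was not tested.

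MYC went with less Wnt6 RNA in both sets, and this was by far the largest difference of any ligand. Wnt9a was lower with MYC in both sets too, past the fold cutoff only in the 12-library set. Wnt5b fell in the 12-library set. No ligand rose past the cutoffs with MYC, Wnt2b included. Of the 8 ligands, 0 rose and 1 fell in the 6-library set, where 26.8% of all genes were past the cutoffs (12.5% higher and 14.3% lower), and 0 rose and 3 fell in the 12-library set, against 25.5% of all genes (10.8% higher and 14.7% lower). The 1 of 8 is near the share of genes lower, and the 3 of 8 is above it. Counts this small are not read as a result about the family, so the ligands are described one by one. Their median log2FC was -0.10 in the 6-library set and -0.25 in the 12-library set, and the median over all genes was -0.0038 and -0.00014.

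**Figure D1:**
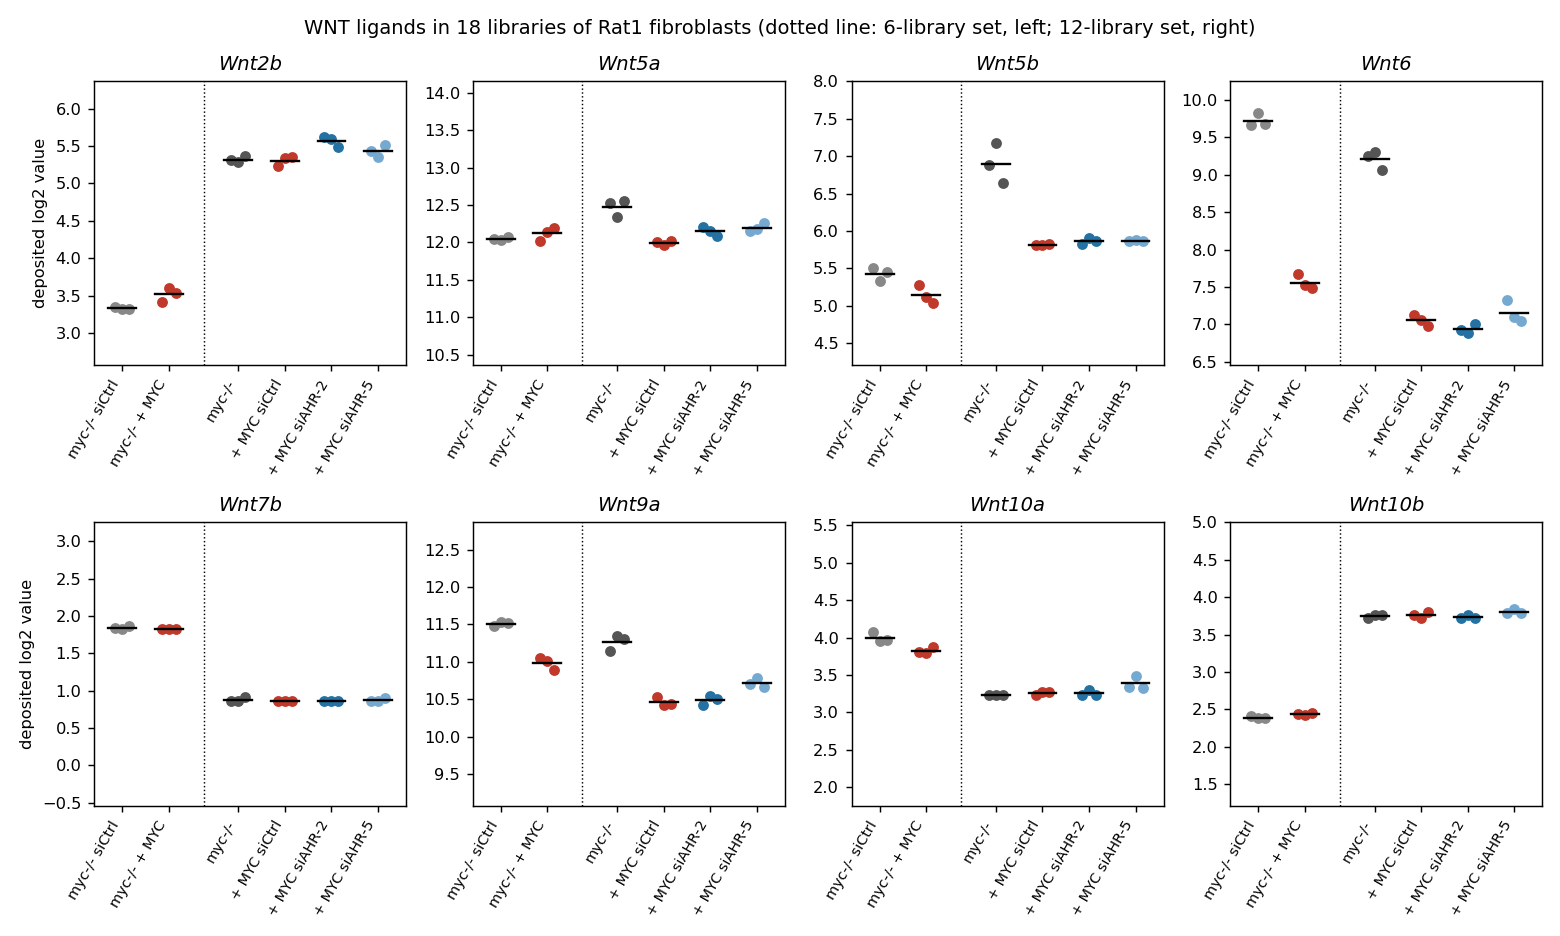
Deposited log2 values of the 8 WNT ligands in all 18 libraries, one panel per ligand with vertical axes of equal length; each point is a library, each bar the mean of 3, and the dotted line separates the 6-library set from the 12-library set, which are not on one scale. Wnt6 lies at 9.67 to 9.83 without and 7.48 to 7.67 with MYC in the 6-library set, and at 9.06 to 9.31 without and 6.88 to 7.32 with MYC in the 12-library set.

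Wnt6 is known from the budding epithelium of the kidney and the segmenting embryo, where it signals through β-catenin. In the 6-library set it measured 9.67, 9.83 and 9.68 in myc-/- siCtrl cells. With MYC it measured 7.67, 7.52 and 7.48. All 3 libraries with MYC lay below all 3 without it, by far more than either group spread (SD 0.0877 and 0.103, n = 3 each). The log2FC was -2.17 (SE 0.0723), or 0.222 of the level without MYC (limma, adjusted p = 2.5e-10).

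The 12-library set gave nearly the same size of difference for Wnt6. Cells without MYC measured 9.25, 9.31 and 9.06, and myc-/- + MYC siCtrl cells 7.12, 7.06 and 6.98. Again the groups were far apart, with a log2FC of -2.15 (SE 0.0829), or 0.225 of the level without MYC (limma, adjusted p = 4.98e-06). The MYC effects in the 2 sets differed by 0.02 (95% confidence interval -0.22 to 0.26, limma adjusted p = 0.898). By the labels, which could not be checked on this point, the control siRNA was on the cells without MYC in the one set and on those with MYC in the other. Leaving out any library kept the Wnt6 log2FC between -2.23 and -2.12 in the smaller set, and in the larger one its range was -2.23 to -2.10.

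Wnt9a takes part in joint formation and in the emergence of blood stem cells. It measured 11.48, 11.53 and 11.52 in myc-/- siCtrl cells and 11.05, 11.01 and 10.89 in myc-/- + MYC cells, so that the groups did not overlap. The log2FC of -0.53 (SE 0.0482, limma adjusted p = 1.33e-06) missed the fold cutoff. In the larger set, myc-/- cells measured 11.15, 11.34 and 11.30, and myc-/- + MYC siCtrl cells 10.53, 10.42 and 10.44. There the ligand fell by 0.80 on the log2 scale (SE 0.0646, limma adjusted p = 9.81e-05), to 0.574 of the level without MYC. The difference between the 2 effects was -0.27 (95% confidence interval -0.45 to -0.093, limma adjusted p = 0.0128), which did not pass.

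Wnt5a and Wnt5b are close relatives that guide cell movement and tissue elongation through ROR receptors. Wnt5b in the 12-library set measured 6.88, 7.17 and 6.64 without MYC and 5.81, 5.81 and 5.82 in myc-/- + MYC siCtrl cells. It fell by 1.08 (SE 0.131, limma adjusted p = 6e-04), to 0.473 of the level without MYC. The 3 values with MYC lay within 0.01 of the lowest value the gene takes in that set, as did 1 siAHR-2 library, and whether the fold is understated there was not tested. The myc-/- cultures, in contrast, were spread widely (SD 0.266, n = 3), replicate 2 being the highest. Without that library, which also lay farthest from its group over all genes, the log2FC of Wnt5b was -0.94.

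In the other set Wnt5b measured 5.5, 5.33 and 5.45 in myc-/- siCtrl cells and 5.27, 5.11 and 5.04 with MYC. The groups did not overlap, but the log2FC of -0.29 (SE 0.0651, limma adjusted p = 0.00191) was under the fold cutoff. The effect of MYC on Wnt5b differed between the sets by -0.79 (SE 0.142, limma adjusted p = 0.000253), the one ligand for which that difference passed, beside 16.5% of all genes (6.79% higher and 9.67% lower). Because the sets differ in scale, in their siRNA labels and in floor, what separates the 2 effects was not tested.

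Wnt5a gave different values in the 2 sets. Its values of 12.04, 12.03 and 12.07 in myc-/- siCtrl cells overlapped those of 12.02, 12.14 and 12.20 in myc-/- + MYC cells, and the log2FC was 0.08 (SE 0.0461, limma adjusted p = 0.156). Without MYC in the 12-library set it measured 12.53, 12.34 and 12.55, above the 12, 11.97 and 12.02 of the myc-/- + MYC siCtrl cells. That log2FC of -0.48 (SE 0.0614, limma adjusted p = 0.000767) missed the fold cutoff. The difference of the 2 effects, -0.55 (SE 0.0806, limma adjusted p = 3.62e-05), missed it as well. It went past the cutoff when myc-/- replicate 2 was left out (-0.62) and when myc-/- + MYC replicate 1 was left out (-0.60).

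Wnt2b, a ligand of the eye, gut and liver rudiment, passed the cutoffs in neither set. The study, which used DESeq2, listed WNT2B among the genes activated by MYC. Limma on the deposited values did not give that call, and the reason was not tested. It measured 3.35, 3.32 and 3.32 in myc-/- siCtrl cells and 3.41, 3.60 and 3.54 in myc-/- + MYC cells. Every library with MYC was above every library without it, and the log2FC was 0.19 (SE 0.0425, limma adjusted p = 0.00185), under the fold cutoff. Of the myc-/- siCtrl libraries 2 were within 0.01 of the lowest value of the gene in that set, and whether the fold is understated there was not tested. Myc-/- cells of the 12-library set measured 5.31, 5.28 and 5.37, and myc-/- + MYC siCtrl cells 5.23, 5.34 and 5.35. These overlapped, with a log2FC of -0.01 (95% confidence interval -0.12 to 0.096, limma adjusted p = 0.861). The difference between the sets was -0.20 (SE 0.0674, limma adjusted p = 0.0216) and did not pass, and the sign in the 12-library set turned with scaling and with single libraries.

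**Figure D2:**
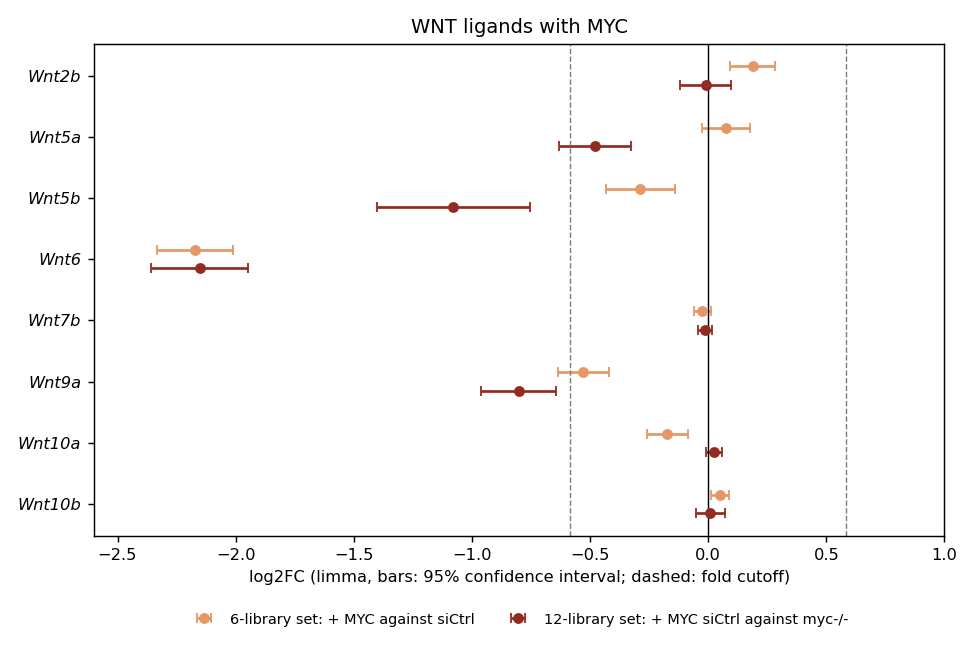
Log2FC of each WNT ligand with MYC (horizontal axis, limma; bars are 95% confidence intervals, 3 libraries against 3) in the 6-library set and in the 12-library set, with dashed lines at the fold cutoff. The 2 estimates for Wnt6, -2.17 and -2.15, lie on top of each other, while the intervals of Wnt5a, Wnt5b, Wnt9a and Wnt10a do not meet.

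Wnt10a, Wnt10b and Wnt7b act in teeth and skin appendages, in the restraint of fat cell formation, and in lung and bone. Here Wnt10b and Wnt7b sat at or near the lowest value each gene takes. For Wnt10a this held in part, with 1 of 6 libraries of the 6-library set within 0.01 of its lowest value. Wnt10a measured 4.07, 3.96 and 3.97 in myc-/- siCtrl cells and 3.81, 3.79 and 3.88 with MYC, a log2FC of -0.17 (SE 0.0387, limma adjusted p = 0.0017) under the fold cutoff. In the larger set all 3 myc-/- libraries measured 3.23, and 6 of its 12 libraries were within 0.01 of the lowest value. The log2FC with MYC there was 0.03 (SE 0.0137, limma adjusted p = 0.143), and the difference between the sets, 0.20 (limma, adjusted p = 0.0021), was under the fold cutoff. Wnt6 and Wnt10a are direct neighbours on chromosome 9 in the RefSeq gene order, so the ligand that fell most lies beside one that stayed under the cutoff in both sets.

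Wnt10b varied by 0.07 over the 6 libraries of the first set and by 0.12 over the 12 of the second. Its log2FC with MYC was 0.05 (SE 0.0177, limma adjusted p = 0.0258) and 0.01 (SE 0.0247, limma adjusted p = 0.77). Wnt7b varied by 0.05 and 0.04, and 4 of 6 and 10 of 12 libraries lay within 0.01 of its lowest value. A ligand listed in this way has a value but hardly any variation to compare, and the log2FC of Wnt7b was -0.02 and -0.01 (limma, adjusted p = 0.175 and 0.34). Over all 8 ligands the groups with and without MYC did not overlap for 6 in the 6-library set, against 78.8% of all genes, and for 4 in the 12-library set, against 70.5%. At an adjusted p under 0.05 with no fold cutoff, the count in the 6-library set was 6 (2 higher and 4 lower) in place of 1, beside 37.3% of all genes higher and 39% lower. Under that rule 4 ligands were called in the 12-library set, all lower, beside 31.6% of all genes higher and 33.1% lower. The difference of the 2 MYC effects then gave 1 ligand higher (Wnt10a) and 4 lower (Wnt2b, Wnt5a, Wnt5b and Wnt9a), beside 24.8% and 30.1% of all genes.

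Silencing AHR left the ligands close to where the control siRNA had them. No ligand passed the cutoffs with siAHR-2, where 0.47% of all genes did (0.159% higher and 0.311% lower), and none with siAHR-5, where 2.32% did (1.47% higher and 0.849% lower). The largest log2FC were 0.26 for Wnt2b with siAHR-2 and 0.25 for Wnt9a with siAHR-5. At an unadjusted p under 0.05 limma listed 2 ligands with siAHR-2 and 4 with siAHR-5, all of them higher than with siCtrl, although for Wnt5b with siAHR-5 the sign turned under quantile normalisation (-0.0014) and median centring (-0.0060). Over all genes that rule took 40.4% with siAHR-2 (19.9% higher) and 47.8% with siAHR-5 (26.5% higher). With an adjusted p under 0.05 and no fold cutoff limma listed 2 ligands with each siRNA, all higher, against 13.7% of genes higher and 15.5% lower with siAHR-2 and 21.1% higher and 18.1% lower with siAHR-5. Both siRNAs were set against the same 3 siCtrl libraries, which also are the cells with MYC in the 12-library set, so these comparisons are not independent of each other. The summed level of the fibroblast markers was 19.99 to 20.03 with siAHR-2 and 19.96 to 19.97 with siAHR-5, under the 20.23 to 20.25 of siCtrl, beside a lower Vim, which has the highest deposited value among them (log2FC -0.36 and -0.48, under the fold cutoff). Over the 12 markers the median log2FC was -0.02 and 0.04. No marker passed with siAHR-2, and with siAHR-5 the surface protein Thy1 alone passed and rose by 0.75 (limma, adjusted p = 0.000258). The part of these markers in the ligand values was not tested.

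Wnt6 stayed low when AHR was silenced. It measured 6.93, 6.88 and 7.01 with siAHR-2 and 7.32, 7.10 and 7.05 with siAHR-5, beside 7.12, 7.06 and 6.98 with siCtrl, and each siRNA group overlapped the control. The log2FC was -0.12 with siAHR-2 (95% confidence interval -0.25 to 0.018, limma adjusted p = 0.17) and 0.10 with siAHR-5 (-0.11 to 0.31, limma adjusted p = 0.395). The myc-/- libraries of that set, at 9.06 to 9.31, lay far above all of them.

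Wnt9a differed between the siRNAs in its values. It measured 10.42, 10.54 and 10.50 with siAHR-2, overlapping the 10.53, 10.42 and 10.44 of siCtrl. With siAHR-5 it measured 10.70, 10.78 and 10.67, above every siCtrl and siAHR-2 library and below every myc-/- library. The log2FC was 0.02 with siAHR-2 (SE 0.0503, limma adjusted p = 0.785) and 0.25 with siAHR-5 (SE 0.0492, limma adjusted p = 0.0111), neither past the cutoffs. Tested directly, siAHR-5 minus siAHR-2 was 0.23 (SE 0.049, limma adjusted p = 0.0151), which did not pass either.

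Wnt5a lay above siCtrl with both siRNAs. The values were 12.21, 12.15 and 12.08 with siAHR-2 and 12.15, 12.18 and 12.26 with siAHR-5, all above the 11.97 to 12.02 of siCtrl and all below the 12.34 to 12.55 of myc-/- cells. The siRNA groups overlapped each other. The log2FC was 0.15 with siAHR-2 (SE 0.0368, limma adjusted p = 0.0322) and 0.20 with siAHR-5 (SE 0.0343, limma adjusted p = 0.00725), a small difference under the fold cutoff with either.

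Wnt2b was the ligand with the largest difference with siAHR-2, at 5.62, 5.59 and 5.49 against 5.23, 5.34 and 5.35 with siCtrl. The log2FC was 0.26 (SE 0.0488, limma adjusted p = 0.015), past neither cutoff. With siAHR-5 it measured 5.44, 5.36 and 5.51, and the log2FC was 0.13 (SE 0.052, limma adjusted p = 0.111). All 6 libraries with an AHR siRNA were above the 3 with siCtrl, and the highest of the myc-/- libraries, 5.37, lay among them.

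Wnt5b measured 5.82 to 5.91 with siAHR-2 and 5.86 to 5.88 with siAHR-5, hardly above its floor and below every myc-/- library. Its log2FC was 0.05 with each siRNA (limma, adjusted p = 0.259 and 0.0892). Wnt10a measured 3.34, 3.49 and 3.33 with siAHR-5, the only group of the set with no library at the gene's lowest value, and its log2FC was 0.13 (SE 0.0442, limma adjusted p = 0.0631). The log2FC of Wnt10b and Wnt7b lay between -0.03 and 0.05 with both siRNAs. The median log2FC of the 8 ligands was 0.01 with siAHR-2 and 0.12 with siAHR-5, and over all genes it was 2.21e-06 and 0.013. Groups did not overlap for 3 ligands with siAHR-2, against 43.3% of all genes, and for 5 with siAHR-5, against 50.5%.

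Set directly against each other, siAHR-5 and siAHR-2 differed past the cutoffs in 0 of 8 ligands, beside 2.18% of all genes (1.33% higher and 0.849% lower with siAHR-5). By limma 4 ligands had an unadjusted p under 0.05, all higher with siAHR-5, while 46.8% of all genes did (26% higher). Of the 4 ligands, 2, Wnt9a and Wnt10b, an adjusted p under 0.05, against 22.1% of genes higher and 17% lower by that rule. Their groups did not overlap for 4 of the 8 ligands and for 49.5% of all genes. For Wnt10b the log2FC was 0.07 (SE 0.0183, limma adjusted p = 0.0242). Wnt6 was 0.22 higher with siAHR-5 (95% confidence interval 0.015 to 0.42, limma adjusted p = 0.0877) and did not pass.

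**Figure D3:**
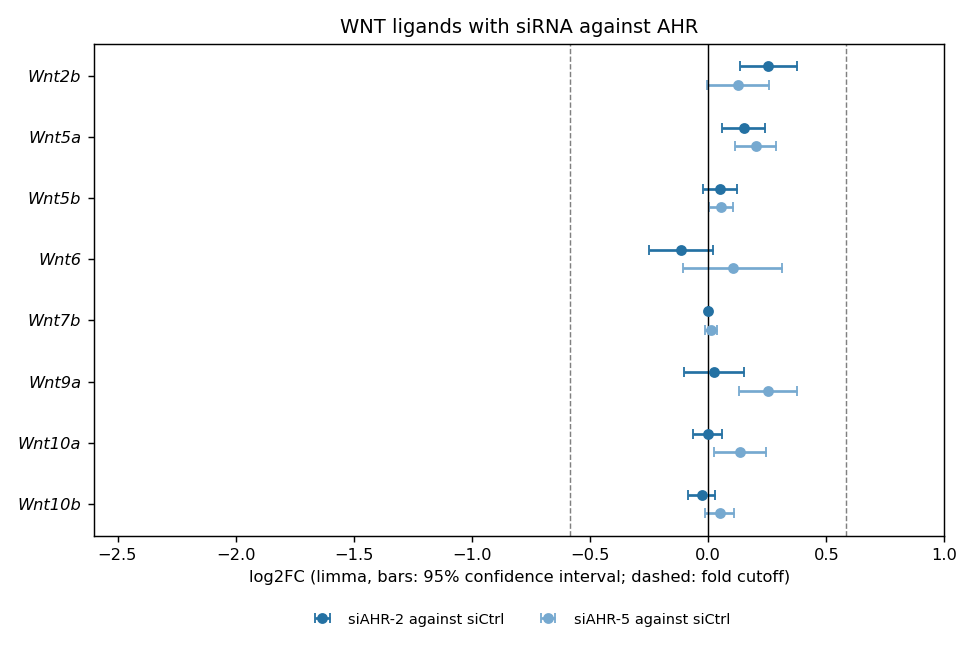
Log2FC of each WNT ligand with siAHR-2 and siAHR-5 against siCtrl in myc-/- + MYC cells (horizontal axis, limma; bars are 95% confidence intervals, 3 libraries against 3), drawn over the same range as the plot of the MYC effects with dashed lines at the fold cutoff. The estimates lie between -0.12 and 0.26, and no interval reaches a dashed line, but 10 of 12 Wnt7b libraries and all 3 Wnt5b siCtrl libraries lie at the gene's lowest value, where an interval is no measure of precision.

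The genes that make, bind and receive the ligands are given next, by role. Each count is to be read beside the 26.8% of all genes past the cutoffs in the 6-library set (12.5% higher and 14.3% lower) and the 25.5% in the 12-library set (10.8% higher and 14.7% lower), and each median beside the all-gene medians of -0.0038 and -0.00014. Among 17 measured genes for acylation, folding and transport, 2 rose and 1 fell in the 6-library set, and 3 rose and 3 fell in the 12-library set (median log2FC -0.03 and -0.23). Scd2, which makes the monounsaturated fatty acid used in the lipid modification, rose by 2.71 and 2.92 (limma, adjusted p = 5.92e-13 and 2.78e-07). Porcn, the enzyme that attaches that lipid, measured 10.36 to 10.40 in myc-/- cells and 8.73 to 9.08 in myc-/- + MYC siCtrl cells, so that it fell by 1.51 (limma, adjusted p = 4.31e-05). In the 6-library set its log2FC was -0.21 (limma, adjusted p = 0.00187), under the cutoff, and the difference of the 2 effects passed at -1.30 (limma, adjusted p = 1.07e-07). Wls, the carrier of WNT ligands to the surface, rose by 0.77 in the 6-library set (limma, adjusted p = 3.49e-09), and its 0.27 in the 12-library set was under the cutoff. Snx12, a sorting nexin of the route that recycles WLS, fell (log2FC -0.60 and -0.68). Snx3 and Vps26a of the same list went the other way (0.53 and 0.80, and 0.29 and 0.90). Both were past the cutoffs in the 12-library set only. With AHR silenced, 1 gene of this list passed, beside 0.47% of all genes with siAHR-2 and 2.32% with siAHR-5. It was Tmed5, which loads ligands for export from the endoplasmic reticulum and fell by 0.74 with siAHR-2 (limma, adjusted p = 0.000815). With the replicate number as a block, 0 genes of the whole table passed with siAHR-2, so this call was lost.

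Of 14 extracellular genes, beside the same shares of all genes (12.5% higher and 14.3% lower, then 10.8% and 14.7%), 2 rose and 5 fell in the 6-library set, and 2 rose and 4 fell in the 12-library set, with 6 past the cutoffs in the same direction in both and a median log2FC of -0.10 and -0.19. Sulf1 and Sulf2, the sulfatases that trim heparan sulfate and release ligands from it, both fell, Sulf1 with a log2FC of -1.88 and -3.23 and Sulf2 with -2.37 and -2.29. Gpc1, a heparan sulfate proteoglycan at the cell surface, fell as well (-1.75 and -2.43). Frzb, a decoy that binds ligands before they reach a receptor, rose by 2.84 and 0.74. No gene of this list passed with siAHR-2 or siAHR-5 by limma, beside 0.47% and 2.32% of all genes. By the profile measure given below, Sulf2 was among the 5 genes nearest to Wnt6 in all of the table (0.120), an observation made after its values were seen.

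Of 14 receptors and co-receptors, against 26.8% and 25.5% of all genes past the cutoffs, 2 rose and 2 fell in the 6-library set, and 1 rose and 4 fell in the 12-library set (median log2FC 0.02 and -0.19). Ror2, the receptor of WNT5A, measured 12.74 to 12.92 in myc-/- siCtrl cells and 10.04 to 10.24 with MYC, and 11.94 to 12 against 7.78 to 7.88 in the 12-library set. It fell each time (log2FC -2.72 and -4.14, limma adjusted p = 1.25e-11 and 1.21e-07), a difference larger than that of any ligand. Of the Frizzled receptors, Fzd1 fell (-1.20 and -1.84) and Fzd2 rose (1.40 and 0.84). With siAHR-5, the co-receptor Lrp6 fell by 0.60 and Reck, which helps cells respond to WNT7 ligands, fell by 0.78 (limma, adjusted p = 0.001 and 0.000193). These 2 of 14 stand beside 2.32% of all genes with siAHR-5 (1.47% higher and 0.849% lower). No receptor passed with siAHR-2, where 0.47% of all genes did.

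Of 10 genes that β-catenin raises in many tissues, 3 rose and 1 fell in the 6-library set, and 3 rose and 3 fell in the 12-library set (median log2FC 0.03 and 0.07), where 26.8% and 25.5% of all genes passed. Lef1, the DNA-binding partner of β-catenin, rose by 1.32 and 1.90, and Rnf43, which removes Frizzled receptors from the surface, by 1.65 and 0.62. Ccnd1, the cyclin of early cell cycle entry, fell (-1.52 and -0.89). Axin2, the common readout of the pathway, rose by 0.75 in the 6-library set (limma, adjusted p = 6.31e-07), and its log2FC of 0.33 in the 12-library set did not pass (limma, adjusted p = 0.0129). None of these genes passed the cutoffs with siAHR-2 or siAHR-5, where 0.47% and 2.32% of all genes did.

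**Figure D4:**
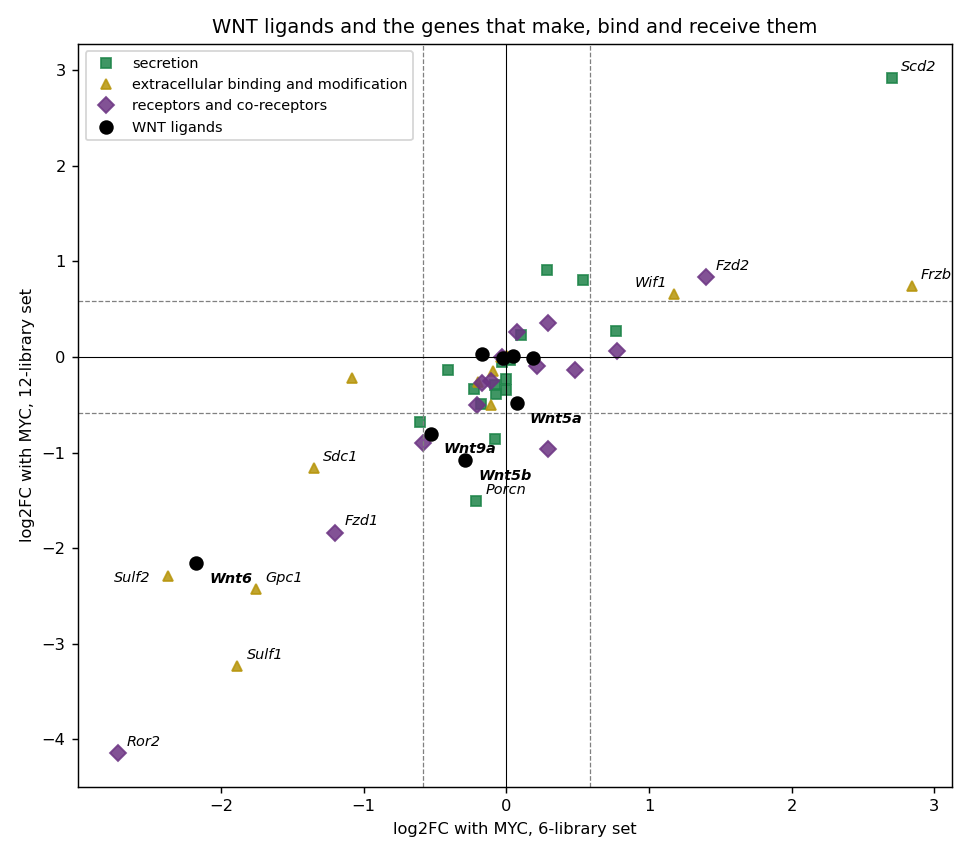
Log2FC with MYC in the 6-library set (horizontal axis) and in the 12-library set (vertical axis) for the WNT ligands (black circles) and the genes of secretion, extracellular binding and reception (coloured symbols), with dashed lines at the fold cutoff in either set. Wnt6 lies at the lower left among Sulf1, Sulf2, Gpc1 and Ror2, and the other ligands lie in the middle or lower, with none past the upper or right-hand line.

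For each ligand the genes with the most similar profile were found by the root mean square difference over the 18 libraries, after each gene was centred within each set. The libraries of a set share their scaling, and the measure is a description. Nearest to Wnt6 were St6gal1, a sialyltransferase, and Il17re, a receptor subunit for interleukin 17C, both at 0.117, for a gene whose centred values span 2.88. Trim8 and Ltbp3 were nearest to Wnt9a (0.0622 and 0.0712 over a span of 0.97). Those of Wnt5b were Vamp8 and Ppdpf (0.0955 and 0.0961 over a span of 1.36). Fam120a and Taok3 were nearest to Wnt5a (0.0639 and 0.0660), and Zfp263 and Spef2 to Wnt2b (0.0489 and 0.0574). Fcgbpl1 and Lcn11 were nearest to Wnt10a (0.0461 and 0.0495 over a span of 0.33). The profiles of Wnt10b and Wnt7b spanned 0.12 and 0.0492. Their nearest genes (Efhb and Pth2, and Olr29 and Faim2) thus share little more than a flat course.

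Ordered by group mean within the 12-library set, Wnt6, Wnt9a, Wnt5a and Wnt5b were highest in myc-/- cells, and for these 4 ligands the myc-/- libraries did not overlap the next group, siAHR-5. For Wnt6 the order below that was siAHR-5, siCtrl and siAHR-2, and neighbours in it overlapped. For Wnt9a siAHR-5 stood apart from siAHR-2, which overlapped siCtrl. For Wnt5a siAHR-5 and siAHR-2 overlapped and stood apart from siCtrl. Wnt2b ran from siAHR-2 through siAHR-5 and myc-/- to siCtrl with each neighbour overlapping the next, and the other 3 ligands showed no more than 1 gap between neighbouring groups.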

How the data were processed

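RNA-seq was performed on poly-A RNA of 18 cultures in 6 groups of 3, with groups and table columns assigned by the sample labels (0 value columns had no sample). After quality control with the NGS-QC-Toolkit, the authors used HISAT2 2.1.0 for alignment to rn6, kept genes with at least 10 reads in total and normalised with DESeq2. The authors deposited log2 values for 13188 genes; the transformation, read counter and use of strand are not given in the sources used here. Converted back from log2 they sum per library to between 86.3 and 161 times what CPM would, and depth and its precision are unknown.

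The values were tested as deposited with limma 3.58.1 in R 4.3.3 (mean-variance trend, only the groups compared in a fit) with Benjamini-Hochberg adjustment over all genes. Plots were made in Python 3.11.15 (matplotlib 3.10.9). The ligands, the pathway and marker lists and the tests were chosen with earlier results of these data known. Genes named are the 10 ligands, the 2 nearest profiles of each, up to 4 genes of each pathway list past the cutoffs in the same direction with MYC in both sets, Porcn, Wls, Lef1 and Axin2, and genes of the pathway lists past the cutoffs with either siRNA. Cd3e, Col1a1, Pdgfrb, Postn, Col3a1, Epcam, Cdh1, Krt8, Krt19, Cldn4, Tek, Vim and Thy1 of the marker lists were named after their values were seen. So were Snx3 and Vps26a of the pathway lists. Alternatives tried were an FDR below 5% with no fold cutoff, all libraries of a set or all 18 fitted together, no trend, quantile normalisation, median centring, a minimum mean of 1, a pseudocount of 1 added off the log scale, a block for the replicate number, and omission of single libraries.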

Additional observations from a re-analysis of the deposited data

Results flagged for a closer look

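The effect of MYC on Wnt5b differed between the sets by -0.79 on the log2 scale (SE 0.142, limma adjusted p = 0.000253, 12-library set minus 6-library set). Its log2FC was -1.08 in the 12-library set and -0.29 in the 6-library set, and in each all 3 libraries with MYC lay below all 3 without it. The 3 myc-/- + MYC siCtrl libraries lay within 0.01 of the gene's lowest value in that set, and the myc-/- libraries spread from 6.64 to 7.17. Leaving out each library in turn gave a difference between -0.92 and -0.65. The part of the floor, the scaling and the transfection labels in this difference was not tested.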

How the results depend on the processing

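The calls of Wnt6 with MYC in both sets and of Wnt9a and Wnt5b in the 12-library set held under every alternative that kept both cutoffs. So did the absence of calls with siAHR-2 and siAHR-5. For siAHR-2 the replicate block could not show this, since 0 genes of the whole table passed in that fit. An FDR below 5% in place of both cutoffs, which loosens the adjusted p and drops the fold at once, moved the number of ligands called from 1 to 6 in the 6-library set, from 3 to 4 in the 12-library set, from 0 to 2 with siAHR-2, from 0 to 2 with siAHR-5, from 0 to 2 between the siRNAs, and from 1 to 5 for the difference of the MYC effects; over all genes it moved the calls, in the same order, from 3537 to 10051, 3361 to 8538, 62 to 3860, 306 to 5169, 287 to 5151 and 2171 to 7235. Leaving out single libraries gave 1 to 2 ligands for that difference, 2 without myc-/- replicate 2 and without myc-/- + MYC replicate 1. No comparison had every same-numbered pair of cultures deviating together (correlation over 0.1): single pairs ran from -0.256 to 0.242, highest in the 12-library set and with siAHR-5 (0.218), and the means from -0.0287 to 0.0973. With the replicate number as a block the counts of ligands were 1, 3, 0, 0, 0 and 1 as before, while all genes called with siAHR-2 went from 62 to 0, with 5030 at an unadjusted p under 0.05.

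Signs turned only for log2FC that had not passed, and the cause was not tested. By quantile normalisation these were Wnt2b with MYC in the 12-library set (0.058), Wnt7b (-0.00016) and Wnt9a (-0.033) with siAHR-2, Wnt5b (-0.0014) and Wnt6 (-0.036) with siAHR-5, and Wnt5b between the siRNAs (-0.019). By median centring they were Wnt2b (0.032) and Wnt7b (0.028) with MYC in the 12-library set, Wnt7b (-0.031) and Wnt9a (-0.0070) with siAHR-2, Wnt5b (-0.0060), Wnt7b (-0.048) and Wnt10b (-0.012) with siAHR-5, Wnt5b (-0.025) and Wnt7b (-0.017) between the siRNAs, and Wnt10b for the difference (0.046). Leaving out single libraries gave, in the 12-library set, Wnt10b from -0.011 to 0.029 and Wnt2b from -0.033 to 0.027. With siAHR-2 it gave Wnt10a from -0.026 to 0.010, Wnt7b from -4.5e-05 to 2.6e-05 and Wnt9a from -0.0027 to 0.060. Between the siRNAs Wnt5b ran from -0.018 to 0.026, and for the difference Wnt6 ran from -0.054 to 0.078 and Wnt7b from -0.0014 to 0.024. Scaling moved the split of all genes called with siAHR-5 from 194 higher and 112 lower to 127 and 126 (quantile) and 140 and 165 (median centring). That with MYC in the 12-library set went from 1425 and 1936 to 1796 and 1660 (quantile). In the 6-library set it went from 1653 and 1884 to 1799 and 1684 (quantile) and 1492 and 2046 (median centring). For the difference of the MYC effects it went from 896 and 1275 to 1148 and 1036 (median centring). For the 6-library set, all libraries in 1 fit is the fit reported.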
